A study of Mus musculus with 12 samples.

Results

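Semaphorins, SLITs and netrins are guidance cues, and plexins, ROBOs and UNC5 proteins are receptors for them. These families were described by taking every gene of the deposited expression table with the symbol of a semaphorin of classes 3 to 7, a plexin, a SLIT, a ROBO, a netrin or an UNC5 receptor. That gave 42 of 20368 genes: 20 semaphorins, 8 plexins, 3 SLITs, 4 ROBOs, 3 netrins and 4 UNC5 receptors. The rule used names only and no measured value. *Plxna4* was not matched by it and is given with the other pathway genes.

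The study sequenced RNA from embryonic hearts of CD1 mice, with 3 libraries in each of 4 groups: controls (*Mesp1Cre*;*Hira*+/fl) and mutants (*Mesp1Cre*;*Hira*-/fl), each at E11.5 and at E12.5. *Hira* encodes a chaperone that deposits the histone variant H3.3. All 4 groups carry *Mesp1Cre*, which recombines floxed alleles in the early mesoderm that forms most of the heart, and 1 floxed *Hira* allele, so that recombined control cells keep 1 working copy. The other allele is wild type in controls and null in every cell of mutants, and cells outside the *Mesp1* lineage, such as neural crest, keep the unrecombined floxed copy. Whether a library is 1 heart or a pool is not given in the sources used here, so p-values measure the spread between these libraries.

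Guidance cues were first known from growing axons, which they attract or repel, and the same cues act on endothelial cells, neural crest and myocardium. Class 3 semaphorins are secreted and mostly bind neuropilins, which signal through A-type plexins or PLXND1, while SEMA3E binds PLXND1 directly. Classes 4 to 6 are membrane proteins and SEMA7A is held by a lipid anchor. SLITs are secreted ligands of ROBO1 and ROBO2, and netrin-1 binds DCC, neogenin and UNC5 receptors. In the heart, SEMA3C and its receptors are needed for septation of the outflow tract, PLXND1 for patterning of vessels and outflow tract, and SLIT and ROBO for the caval veins, the membranous septum, the valves and the pericardium.

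Libraries held between 12418089 and 18116581 counted reads. The summed level of 7 cardiomyocyte markers ran from 19044 to 26514 CPM (counts scaled to the total of the library) over the 12 libraries and overlapped between genotypes at both stages. *Hira* itself, counted over the whole gene, stood at 74.8 ± 8.37 CPM (SD, n = 3) in controls and 62.6 ± 8.65 in mutants at E11.5 (log2 fold change -0.26, adjusted p = 0.619, SE 0.14, edgeR), and at 72.1 ± 12.3 and 71.6 ± 5.10 at E12.5 (-0.01, adjusted p = 0.967, SE 0.12). Counts on the whole gene do not separate the recombined exon from the rest. The paper reports fewer reads of that exon in mutants, and less HIRA protein in mutant hearts of a later stage. From 4 Y-linked genes, all 3 E11.5 control libraries were male and 1 of 3 E11.5 mutant libraries was (replicate 3), against 1 of 3 in each genotype at E12.5. Markers of liver and of foregut epithelium, tissues next to the heart, were high in single libraries of both genotypes. The 4 liver markers summed to 23.7 CPM in E11.5 control 1, 53.2 in E11.5 mutant 1 and 47.8 in E12.5 mutant 1, against 0.64 to 13.1 in the other 9. The 5 markers of lung, foregut and pharyngeal epithelium were high in a partly different set. They summed to 19.6 CPM in E11.5 control 1, 12.7 in E11.5 mutant 1 and 15.3 in E12.5 mutant 3. Elsewhere their sum ran from 0.416 to 3.1, with 1.11 in E12.5 mutant 1. In whole hearts, fewer cells of a type and less RNA per cell cannot be told apart.

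Levels are given in RPKM, read counts scaled to the length of the gene and to the total of the library, with totals adjusted by the TMM method. Of the 42 genes, 35 had a mean level of at least 0.5 RPKM in the comparisons of genotypes and were tested there. The 7 that did not were *Ntn5*, *Plxnb3*, *Robo3*, *Sema4f*, *Slit1*, *Unc5a* and *Unc5d*, with means over the 12 libraries from 0.0389 RPKM for *Slit1* to 0.308 for *Unc5a*. *Unc5d* had 67 counts in E11.5 control 1 and at most 20 in each of the other 11 libraries. *Unc5a* overlaps *Hk3* on the other strand, and whether the strand was used in counting is not stated, so reads of these genes may be mixed.

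In most families 1 member held most of the RNA. Among plexins, *Plxnd1* had the highest mean level of all 42 genes, 60.5 RPKM, and made up 41.5% of the plexin total, followed by *Plxnb2* at 46.2 RPKM. *Unc5b*, a netrin receptor of endothelium, made up 88% of the UNC5 total at 29.4 RPKM. *Ntn1* made up 87% of the netrin total at 17.8 RPKM, *Slit2* 64.2% of the SLIT total at 15.6 RPKM and *Robo1* 62.4% of the ROBO total at 8.82 RPKM. The semaphorins were more even: *Sema3c*, the highest, made up 14.8% of their total at 13.3 RPKM, with *Sema6d* at 12.8, *Sema4c* at 10.9 and *Sema3d* at 7.81.

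**Figure D1:**
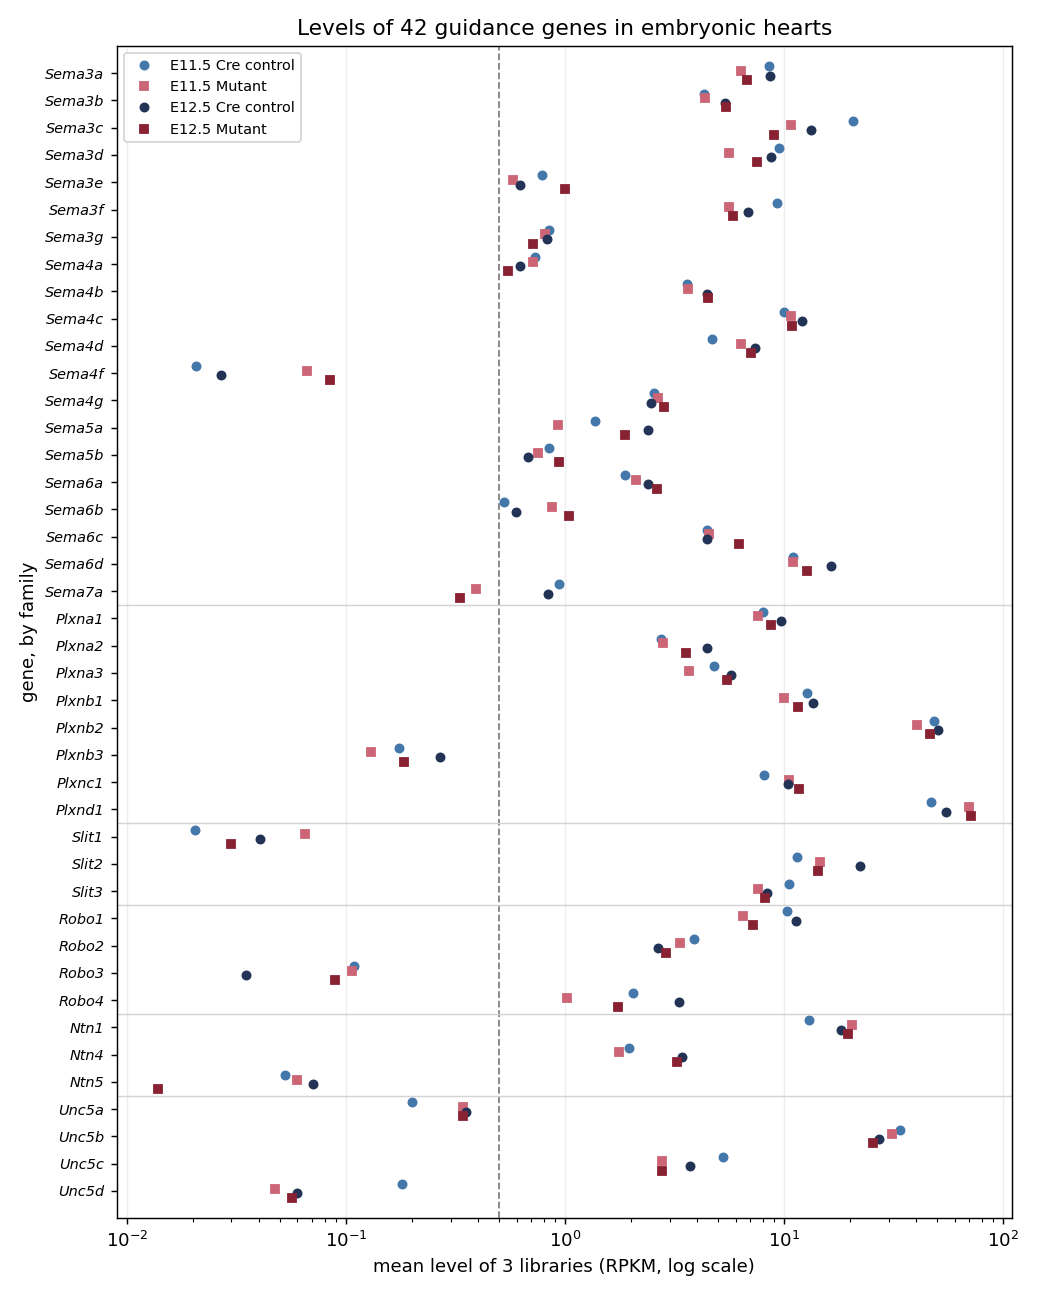
Mean level of each of the 42 guidance genes in the 4 groups (3 libraries each), in RPKM on a logarithmic axis, with genes on the vertical axis by family. Circles are controls and squares mutants, light at E11.5 and dark at E12.5, and the dashed line marks 0.5 RPKM. *Plxnd1*, *Plxnb2* and *Unc5b* lie furthest to the right, and the 7 genes left untested lie left of the line.

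The first question was which guidance genes differ between mutant and control hearts at E12.5. A gene was called changed when its fold change reached 1.5 and its p, adjusted by Benjamini-Hochberg over all genes tested, was 0.05 or less (edgeR, quasi-likelihood). Of the 35 tested at E12.5, 4 guidance genes were called, *Robo1*, *Robo4*, *Slit2* and *Sema7a*, and all 4 fell. Over all 12659 genes tested, 1.34% were called lower and 1.6% higher. With no fold threshold, *Sema3c* and *Unc5c* joined them, so that 6 of 35 guidance genes (17.1%) passed, all lower, against 5.05% of all genes. The median log2 fold change of the 35 was -0.14, that of all genes was 0.00 to 2 decimals.

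The SLIT and ROBO pair, a ligand and its receptor, fell together. *Robo1* stood at 12.5, 12.0 and 9.39 RPKM in the 3 control libraries and 8.49, 6.60 and 6.56 in the 3 mutants. Every mutant library lay below every control library. The log2 fold change was -0.65 (adjusted p = 0.0177, SE 0.13, edgeR), a level 1.57-fold lower. *Slit2* stood at 29.2, 20.2 and 17.1 RPKM in controls and 13.7, 13.5 and 15.6 in mutants, with a log2 fold change of -0.64 (adjusted p = 0.0454, SE 0.16, edgeR). The controls of *Slit2* were spread widely, with replicate 1 highest, while the mutants lay close together.

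Their nearest relatives gave other values. *Robo2*, the other main SLIT receptor, lies 846210 bases from *Robo1* on chromosome 16. *Hira* is far off on the same chromosome, at bases 18877037 to 18970309, where *Robo1* starts at 72663149. *Robo2* stood at 2.65 ± 0.0445 RPKM (SD, n = 3) in controls and 2.9 ± 0.228 in mutants. Its log2 fold change was 0.13 with a 95% interval from -0.08 to 0.34, and every mutant library lay above every control library. *Slit3* stood at 8.34 ± 3.65 and 8.15 ± 0.932 RPKM, a log2 fold change of -0.03 with an interval from -0.54 to 0.47. The 4 ROBO levels summed to 18.8, 18.4 and 14.6 RPKM in controls and 13.2, 11.6 and 11.1 in mutants, and the 3 SLIT levels to 35.6, 26.3 and 29.7 against 22.0, 22.6 and 22.7. Neither sum overlapped between genotypes. Each is made up mostly of a called gene, *Robo1* at 62.4% of the ROBO total and *Slit2* at 64.2% of the SLIT total over the 12 libraries. The sums are therefore no result apart from those calls: *Slit3* overlapped between genotypes and *Robo2* did not fall.

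*Robo4*, a ROBO of endothelial cells, fell 1.89-fold (log2 fold change -0.92, adjusted p = 0.0382, SE 0.22, edgeR). Its levels were 3.67, 3.76 and 2.46 RPKM in controls and 1.91, 2.09 and 1.22 in mutants, again without overlap. The 6 markers of endothelium and endocardium (*Pecam1*, *Cdh5*, *Tek*, *Emcn*, *Npr3* and *Nfatc1*) summed to between 938 and 976 CPM in controls and 949 and 1150 in mutants at E12.5, and none of the 6 was called. The 4 markers of lymphatic endothelium summed to between 109 and 116 CPM in controls and 85.3 and 98.5 in mutants, with 1 of the 4 called lower. They did not move together. *Lyve1* had 199, 259 and 164 counts in controls and 39, 37 and 44 in mutants, and *Prox1* 748, 711 and 674 against 477, 549 and 478. *Flt4* had 570, 776 and 635 against 559, 465 and 427. *Pdpn* went the other way, with 288, 400 and 362 against 439, 455 and 441. *Robo3*, which lies 1645 bases from *Robo4*, had at most 10 counts in any library.

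*Sema7a*, the semaphorin with a lipid anchor, had the largest fold change of the 35 genes and the fewest reads of the 4 called. It had 45, 59 and 37 counts in the 3 control libraries and 18, 11 and 23 in the 3 mutants, which gave 0.868, 0.973 and 0.671 RPKM against 0.358, 0.190 and 0.447. The log2 fold change was -1.35 (adjusted p = 0.0440, SE 0.33, edgeR), with a 95% interval from -2.08 to -0.61.

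*Sema3c* and *Unc5c* passed on the adjusted p and lay under 1.5-fold. *Sema3c*, a cue for neural crest cells in the outflow tract, stood at 14.9, 11.2 and 13.8 RPKM in controls and 7.93, 9.55 and 9.32 in mutants (log2 fold change -0.57, adjusted p = 0.0192, SE 0.12, edgeR). *Unc5c*, a netrin receptor, stood at 4.02, 3.47 and 3.71 RPKM in controls and 2.89, 2.83 and 2.61 in mutants (-0.43, adjusted p = 0.0261, SE 0.09). In both genes all mutants lay below all controls.

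**Figure D2:**
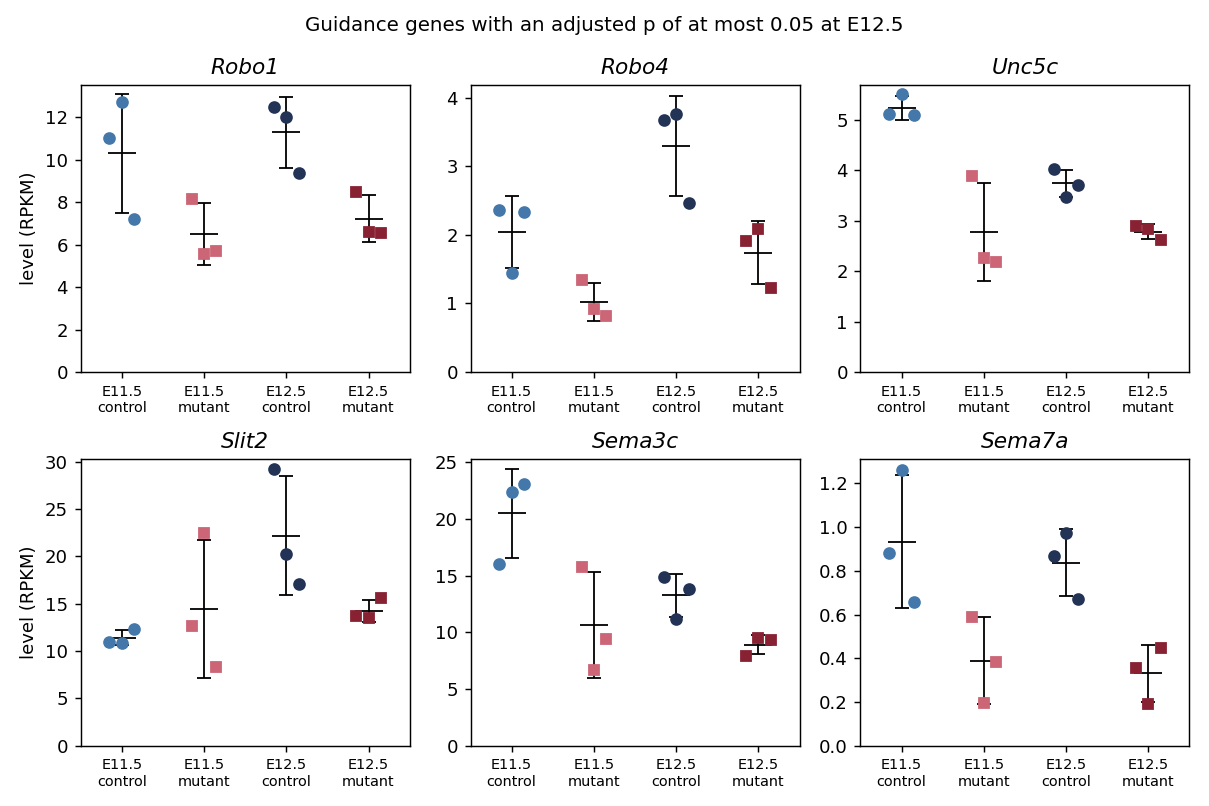
Level in RPKM of the 6 guidance genes with an adjusted p of at most 0.05 at E12.5, in each library of the 4 groups. Points are libraries, horizontal bars group means and error bars the SD of 3 libraries. At E12.5 the mutant and control points of all 6 genes are apart, and at E11.5 those of *Robo1* and *Slit2* overlap.

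The stretch of 250 bases just upstream of the RefSeq start is shown for the 4 genes called, on the strand of the gene and read 5′ to 3′, on GRCm38.p6. It is at chr16:72662899-72663148 for *Robo1*, chr9:37401722-37401971 for *Robo4*, chr9:57939862-57940111 for *Sema7a* and chr5:47982905-47983154 for *Slit2*, all 4 on the + strand. The files place the genes themselves, on mm10, at chr16:72663149-73046095 (*Robo1*), chr9:37401897-37414023 (*Robo4*), chr9:57940113-57962864 (*Sema7a*) and chr5:47983155-48306282 (*Slit2*), so that the stretch of *Robo4* reaches into the gene as the files have it. In all, 5 short words were searched in the stretches on both strands. They were GAGAGAGA for the GAGA factor, then a core of sites for the heart factor NKX2-5 written TNAAGTG, then AGATAA for the family of factors that includes GATA4, then CCGGAA for factors of the ETS kind, and last the TATA box written TATAAA. Capitals mark the matches, the NKX2-5 word in *Robo4* from 119 to 113 bases before the start and the TATA box in *Slit2* from 28 to 23 bases before it.
Robo1: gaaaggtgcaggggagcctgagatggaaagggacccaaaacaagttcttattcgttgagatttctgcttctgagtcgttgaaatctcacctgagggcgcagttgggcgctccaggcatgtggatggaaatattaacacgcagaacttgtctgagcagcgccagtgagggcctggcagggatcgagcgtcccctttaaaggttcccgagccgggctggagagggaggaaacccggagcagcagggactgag
Robo4: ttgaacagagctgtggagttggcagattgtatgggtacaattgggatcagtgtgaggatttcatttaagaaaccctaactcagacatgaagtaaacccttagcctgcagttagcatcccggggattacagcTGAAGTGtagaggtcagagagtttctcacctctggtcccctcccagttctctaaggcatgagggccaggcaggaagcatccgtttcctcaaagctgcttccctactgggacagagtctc
Sema7a: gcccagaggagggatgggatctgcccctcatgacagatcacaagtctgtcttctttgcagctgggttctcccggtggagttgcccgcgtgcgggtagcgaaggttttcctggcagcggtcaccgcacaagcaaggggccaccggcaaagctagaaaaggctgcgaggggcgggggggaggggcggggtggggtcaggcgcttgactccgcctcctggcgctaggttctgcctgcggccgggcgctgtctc
Slit2: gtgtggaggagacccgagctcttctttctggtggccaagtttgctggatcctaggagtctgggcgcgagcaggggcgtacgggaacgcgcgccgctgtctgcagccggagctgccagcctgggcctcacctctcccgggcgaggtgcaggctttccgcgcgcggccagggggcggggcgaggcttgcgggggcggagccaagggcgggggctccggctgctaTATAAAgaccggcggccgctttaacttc
Of 32851 RefSeq promoter stretches of this length, 10.1% hold TNAAGTG and 12.4% TATAAA. The guidance genes had 48 of these stretches, from the 35 genes with a RefSeq start, and 3 and 1 of the 48 hold them. The other 3 words are in 3.26% (GAGAGAGA), 9.99% (AGATAA) and 12% (CCGGAA) of all stretches, and the stretches of *Robo1*, *Robo4*, *Slit2*, *Sema7a*, *Sema3c* and *Unc5c* hold none of the 3. The share of G and C was 56% for *Robo1*, 49.6% for *Robo4*, 66.4% for *Sema7a* and 69.6% for *Slit2*, beside a median of 52.4% over all stretches.

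Other guidance genes at E12.5 did not pass. By groups that do not overlap, 9 of 35 genes were lower and 5 higher, together 40%, against 26.3% of all genes. The 5 higher were *Plxnc1*, *Robo2*, *Sema3e*, *Sema6b* and *Sema6c*. At an unadjusted p under 0.05 there were 11 lower and 4 higher, 42.9% of the 35 against 21.4% of all genes. Of the 4 higher, *Sema6b*, *Sema6c* and *Plxnd1* are membrane proteins and *Sema3e* is secreted. *Sema6c* stood at 4.46 ± 0.495 RPKM in controls and 6.20 ± 0.848 in mutants (log2 fold change 0.47, adjusted p = 0.0723, edgeR), *Sema6b* at 0.598 ± 0.130 and 1.04 ± 0.307 (0.79, adjusted p = 0.135), *Plxnd1* at 52.5, 54.2 and 57 RPKM and 85.8, 56.3 and 71.5 (0.38, adjusted p = 0.110) and *Sema3e* at 0.624 ± 0.0453 and 0.995 ± 0.271 (0.67, adjusted p = 0.106), with SD and n = 3 for the means. *Sema6d*, a ligand of PLXNA1 in heart, stood at 16.3 ± 2.36 and 12.7 ± 0.786 RPKM (-0.36, adjusted p = 0.0703), *Plxna2* at 4.45 ± 0.457 and 3.55 ± 0.429 (-0.33, adjusted p = 0.119) and *Sema5a* at 2.39 ± 0.246 and 1.88 ± 0.194 (-0.35, adjusted p = 0.112). Of the cues and receptors with the highest levels, *Ntn1* stood at 24.3, 18.5 and 11.8 RPKM in controls and 18.5, 14.1 and 26.2 in mutants, a log2 fold change of 0.10 with a 95% interval from -0.44 to 0.65. *Unc5b* stood at 28.2, 28.9 and 24.6 RPKM against 26.5, 23.6 and 25.9 (-0.10, interval from -0.29 to 0.08). Both genes overlapped between genotypes. For *Plxnb2* the log2 fold change was -0.14 (-0.40 to 0.12).

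The calls at E12.5 depended on single libraries. Without control 1 no guidance gene was called, without control 2 only *Sema3c*, without mutant 1 only *Robo1*, without mutant 2 *Robo4* and *Sema3c*, and without mutant 3 *Sema3c* and *Sema7a*, while all 4 remained without control 3. With all 12 libraries in 1 fit none was called, and limma called 1, *Robo1*.

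Levels of some cell type markers also differed at E12.5. The 4 markers of cushion mesenchyme (*Postn*, *Sox9*, *Twist1* and *Msx1*) summed to between 495 and 666 CPM in controls and 348 and 461 in mutants, and none was at 0. Most of that sum was *Postn* (527 CPM in controls), which was called lower (log2 fold change -0.61, adjusted p = 0.0235, edgeR), while *Sox9* (-0.09) and *Twist1* (-0.02) overlapped between genotypes and *Msx1* (-0.36) was not called. The 3 macrophage markers found in the table summed to between 62 and 76.9 CPM in controls and 29.8 and 43.8 in mutants, with 2 called lower, and 4 erythroid genes to between 2659 and 3825 and 1472 and 1934, with 3 called lower. The 6 neuron markers summed to between 44.1 and 51.7 CPM in controls and 81.9 and 93.3 in mutants, with 3 called higher. The part of these cells in the values of the guidance genes was not tested.

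At E11.5 the same comparison called none of the 35 guidance genes in edgeR, where 0.119% of all 12590 genes tested were called. At an unadjusted p under 0.05 there were 12 of 35, 10 lower and 2 higher, or 34.3% against 10.1% of all genes. In 11 genes, 10 lower and 1 higher, the groups did not overlap, or 31.4% against 16.4%. The median log2 fold change was -0.12, beside 0.00 for all genes. Mutant 3, the library with the fewest reads, was the lowest mutant in many of these 10 lower genes. These were *Plxna3*, *Plxnb1*, *Plxnb2*, *Robo4*, *Sema3e*, *Sema5a* and *Unc5c*, while mutant 2 was lowest in *Sema3c*, *Sema3f* and *Sema7a*. The part of mutant 3 in the median was not tested. DESeq2 called 3, *Sema3c*, *Sema3f* and *Unc5c*, and a fit on all 12 libraries called 2, *Sema3f* and *Unc5c*.

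Class 3 semaphorins were lower as a sum at this stage. Their 7 levels added up to 48.3, 57.0 and 55.8 RPKM in controls against 40.5, 32.6 and 28.6 in mutants, without overlap. At E12.5 the sums were 48.7, 40.1 and 43.5 against 34.7, 34.6 and 39.2, again without overlap. Those sums hold *Sema3c*, which had passed on the adjusted p at E12.5, so they are no separate result. Of the class, only *Sema3c* was lower without overlap at E12.5, and *Sema3e* was higher without overlap. *Sema3f*, chosen here after its values were seen, stood at 9.55, 9.45 and 8.85 RPKM in E11.5 controls and 6.62, 4.68 and 5.42 in mutants (log2 fold change -0.74, SE 0.15, unadjusted p = 0.00101, adjusted p = 0.124, edgeR). *Sema3c* stood at 16, 22.4 and 23.1 RPKM against 15.8, 6.73 and 9.42 (-0.95, adjusted p = 0.259, SE 0.29), so that mutant 1 lay just under the lowest control. *Sema3a* and *Sema3d* had log2 fold changes of -0.42 and -0.76 with overlapping groups, and *Sema3b* and *Sema3g* of 0.01 and -0.05.

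*Unc5c*, *Robo4* and *Sema7a* were also below all controls at E11.5. *Unc5c* stood at 5.11, 5.50 and 5.08 RPKM in controls and 3.89, 2.25 and 2.18 in mutants (log2 fold change -0.92, adjusted p = 0.159, SE 0.22, edgeR). *Robo4* stood at 2.37, 1.44 and 2.33 RPKM against 1.34, 0.915 and 0.815 (1.99-fold lower, adjusted p = 0.238, on the log2 scale SE 0.29). *Sema7a* had 46, 67 and 32 counts against 31, 11 and 15, or 0.882, 1.26 and 0.658 RPKM against 0.591, 0.195 and 0.383 (-1.27, adjusted p = 0.343, SE 0.44). In these 3 genes and in *Sema3c*, mutant 1 was the highest of the mutants, and it is the library with the highest liver markers at this stage. The 4 markers of the second heart field and outflow tract (*Isl1*, *Fgf8*, *Fgf10* and *Tbx1*) also had their highest mutant sum there, with 13.6, 14.7 and 15.3 CPM in controls and 13.7, 3.26 and 7.52 in mutants. Of these, *Isl1* had 134, 160 and 187 counts in controls and 124, 11 and 32 in mutants (log2 fold change -1.48, adjusted p = 0.472, edgeR). The 4 did not move together. *Fgf10* had 68, 57 and 32 counts against 47, 29 and 26, and *Fgf8* 6, 13 and 2 against 8, 8 and 10. *Tbx1* had 9, 9 and 6 against 40, 8 and 22, so that mutants 1 and 3 lay above all controls. The part of these tissues in the values was not tested.

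*Robo1* overlapped at E11.5, at 11.0, 12.7 and 7.21 RPKM in controls and 8.17, 5.58 and 5.70 in mutants (log2 fold change -0.67, adjusted p = 0.334, SE 0.23, edgeR). *Slit2* stood at 11.0, 10.9 and 12.3 RPKM in controls and 12.6, 22.5 and 8.28 in mutants (0.35, adjusted p = 0.813, SE 0.30), so that the highest and the lowest of the 6 values were both mutant libraries. *Slit3* was lowest in mutant 3, at 2.27 RPKM, beside 10.6 and 9.85 in the other mutants and 7.77 to 14.8 in controls. With a term for sex, *Sema3d* (-1.79) and *Slit3* (-2.20) were called, both with an adjusted p of 0.0485 in edgeR. Since all controls were male, that term leaves mutant 3 as the only mutant of the controls' sex.

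Among plexins, *Plxnd1* stood at 47.8, 55.7 and 37.2 RPKM in E11.5 controls and 58.7, 94.2 and 55.4 in mutants (log2 fold change 0.56, adjusted p = 0.448, SE 0.23, edgeR). *Plxna3*, *Plxnb1* and *Plxnb2* were lower without overlap, with log2 fold changes of -0.38, -0.35 and -0.25 and adjusted p of 0.306, 0.460 and 0.536. *Ntn1* stood at 18.1, 11.4 and 9.39 RPKM in controls and 15.2, 30.9 and 15.2 in mutants (0.66, adjusted p = 0.554, SE 0.32), and *Unc5b* at 31.3, 40.2 and 29.7 against 38.2, 27 and 28.1 (-0.12, adjusted p = 0.909, SE 0.18), both with overlap. Marker sums differed at this stage too: endothelium ran from 755 to 904 CPM in controls and 940 to 1296 in mutants, epicardium from 459 to 706 and 296 to 409, macrophages from 21.6 to 56.6 and 10.2 to 11.9 and neurons from 48.5 to 60.4 and 65.8 to 115, with no marker called. Cushion mesenchyme ran from 525 to 669 CPM in controls and 254 to 576 in mutants, with overlap. Their part in these values was not tested.

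**Figure D3:**
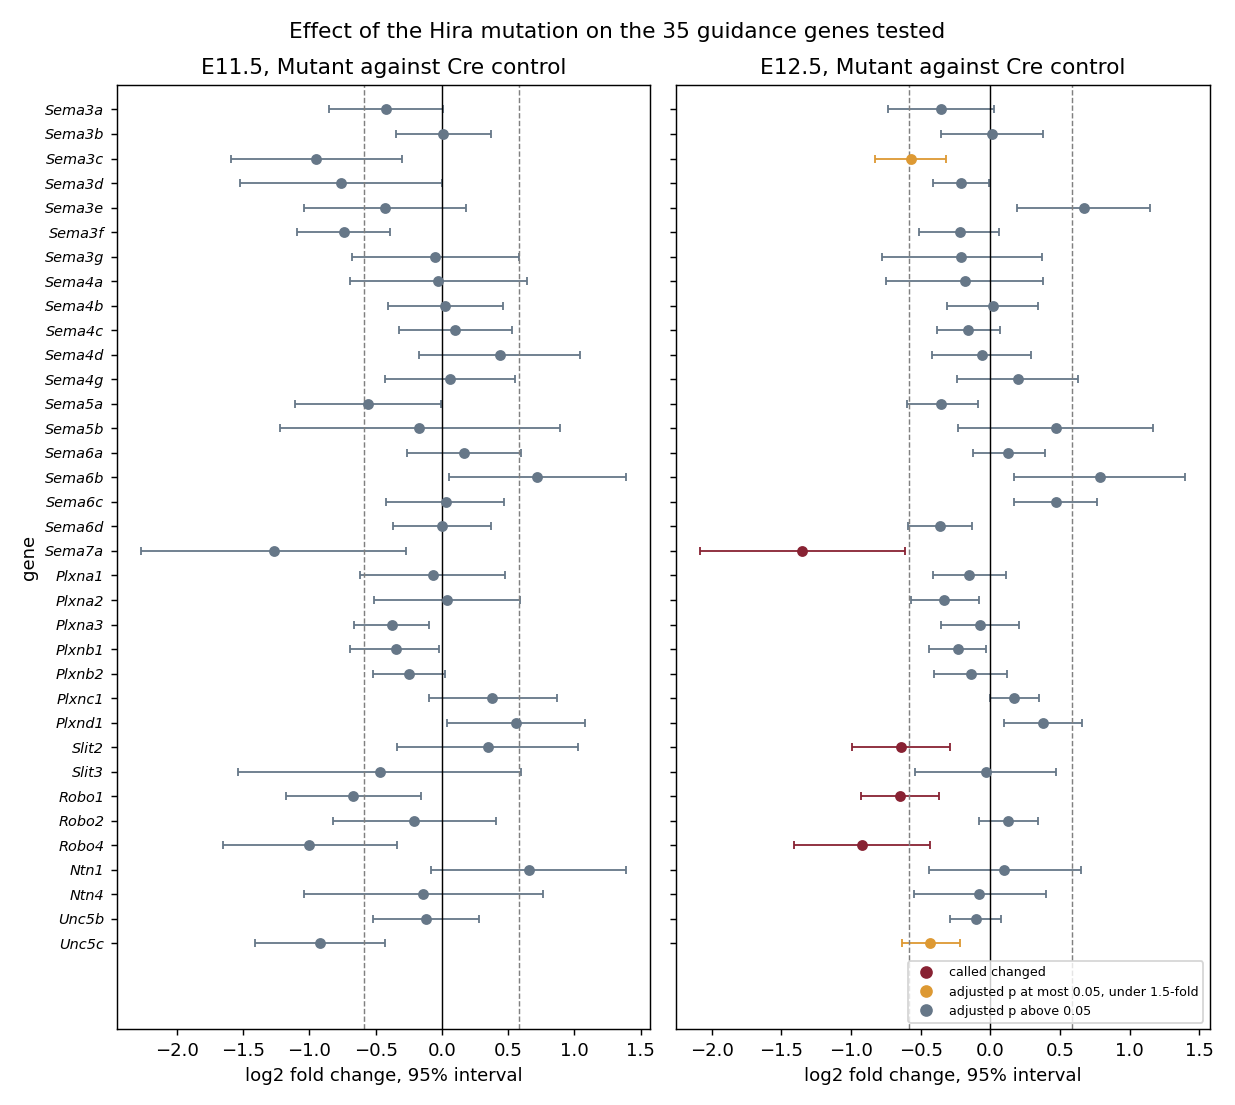
Log2 fold change of mutant against control for the 35 guidance genes tested, at E11.5 (left) and E12.5 (right), with 95% intervals from edgeR and genes on the vertical axis by family. Red marks genes called changed, orange an adjusted p of at most 0.05 under 1.5-fold and grey the rest, and dashed lines mark a 1.5-fold change. *Robo1*, *Robo4*, *Slit2* and *Sema7a* are red at E12.5 and no gene is coloured at E11.5.

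In 5 of 35 genes all mutant libraries lay below all control libraries at both stages: *Unc5c*, *Robo4*, *Sema3c*, *Sema7a* and *Sema5a*. That is 14.3%, beside 3.07% of the 12415 genes tested at both stages. Only *Sema6b* was above at both stages, at 0.663, 0.527 and 0.389 RPKM in controls and 0.989, 0.790 and 0.840 in mutants at E11.5 and 0.667, 0.679 and 0.448 against 1.39, 0.854 and 0.864 at E12.5. That is 2.86%, beside 3.43% of all genes. *Sema6b* counts ran from 23 to 85 a library.

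The difference between the 2 effects was tested itself, with positive values for a higher effect at E12.5. None of the 35 guidance genes passed in edgeR, and 0% of all 12660 genes did (0 of 12660, with 570 at an unadjusted p under 0.05). DESeq2 also called no guidance gene. At an unadjusted p under 0.05 were 3 of the 35, *Sema3e* (1.10, adjusted p = 0.779, SE 0.35), *Slit2* (-0.99, adjusted p = 0.954, SE 0.39) and *Sema3f* (0.52, adjusted p = 0.954, SE 0.21). For *Robo1* the difference was 0.02 with a 95% interval from -0.60 to 0.65, and for *Robo4* 0.07 (-0.76 to 0.90). So a call at E12.5 and none at E11.5 was not shown to be a difference between stages for any of the 4 genes.

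Guidance genes were then compared between stages within each genotype, in libraries that the comparisons above also used. In controls, 4 of 35 were called between E11.5 and E12.5, beside 5.35% of all 12646 genes tested. *Slit2* rose 1.95-fold (log2 fold change 0.96, adjusted p = 0.0159, SE 0.17, edgeR), from between 10.9 and 12.3 RPKM to between 17.1 and 29.2. *Plxna2*, a receptor for class 3 and class 6 semaphorins, rose from 2.83, 2.92 and 2.44 RPKM to 4.95, 4.36 and 4.06 (0.70, adjusted p = 0.0116, SE 0.12). *Sema5a* rose from 1.89, 1.12 and 1.08 RPKM to 2.56, 2.5 and 2.11 (0.81, adjusted p = 0.0347, SE 0.20), with E11.5 control 1 apart from the other E11.5 controls. *Sema3c* fell by 0.63 on the log2 scale (adjusted p = 0.0332, SE 0.15), from between 16 and 23.1 RPKM to between 11.2 and 14.9. *Robo2*, *Sema3f* and *Unc5c* were lower and *Sema6d* higher with an adjusted p of at most 0.05 and under 1.5-fold. E11.5 controls were all male and E12.5 controls were not, and with a term for sex none of the 4 was called. That term leaves E12.5 control 3 as the only E12.5 control of the same sex as the E11.5 controls. The calls also rested on single libraries. When each of the 6 libraries was dropped in turn, *Sema3c* lost its call 5 times and kept it only without E11.5 control 1, where *Slit2* lost its own. *Sema5a* was lost in 3 (without E11.5 control 3, E12.5 control 1 or E12.5 control 2) and *Plxna2* in 1 (without E12.5 control 1).

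In mutants, 1 of 34 was called, *Sema5a*, beside 0.57% of all 12641 genes tested. It rose from 1.01, 0.958 and 0.812 RPKM to 1.97, 1.66 and 2.02 (log2 fold change 1.01, adjusted p = 0.0301, SE 0.15, edgeR). With the exception of E11.5 mutant 3, leaving out any 1 of the 6 libraries left no call. *Slit2* had a stage difference of -0.03 in mutants with a 95% interval from -0.71 to 0.65, *Plxna2* of 0.33 (-0.23 to 0.88) and *Sema3c* of -0.26 (-0.88 to 0.35). These intervals hold the control values of *Plxna2* and *Sema3c* but not the 0.96 of *Slit2*, and the test of that difference is the one given above for *Slit2* (-0.99).

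**Figure D4:**
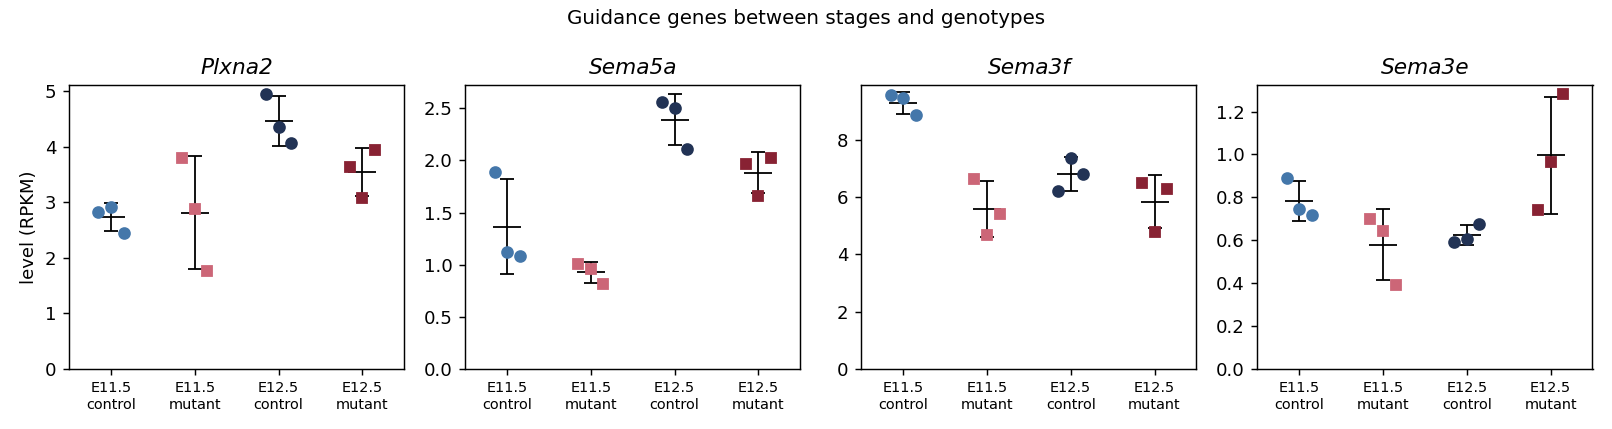
Level in RPKM of *Plxna2* and *Sema5a*, called between stages, and of *Sema3f* and *Sema3e*, in each library of the 4 groups. Points are libraries, horizontal bars group means and error bars the SD of 3 libraries. *Sema3e* mutants lie below the controls at E11.5 and above them at E12.5.

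Of 50 other genes of these pathways (co-receptors, further ligands and signalling proteins), 41 were tested at E12.5. Of these, 1 was called, beside 2.94% of all genes. It was *Crmp1*, a collapsin response mediator that acts downstream of semaphorins, higher at 13.9, 13.2 and 10.9 RPKM in mutants against 6.06, 6.57 and 5.47 in controls (log2 fold change 1.07, adjusted p = 0.00133, SE 0.11, edgeR). It was higher at E11.5 too, without a call (1.34, adjusted p = 0.0705, SE 0.20), and it is also expressed by neurons, whose markers were higher at both stages. With no fold threshold, 6 of 41 passed at E12.5 (14.6%), beside 5.05% of all genes. *Rras* was higher (0.39), and *Nrp2* (-0.54), *Plxna4* (-0.53), *Flrt2* (-0.45) and *Dpysl3* (-0.43) were lower.

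Set beside their ligands, the co-receptors differed. *Nrp2*, a neuropilin for SEMA3C and SEMA3F, stood at 4.61, 5.03 and 4.20 RPKM in E12.5 controls and 3.17, 2.80 and 3.59 in mutants (adjusted p = 0.0217, edgeR). *Nrp1*, the more abundant neuropilin, stood at 46.9 ± 3.96 RPKM (SD, n = 3) in controls and 44.3 ± 0.404 in mutants (-0.08, adjusted p = 0.577). *Plxna4*, a partner of neuropilins, stood at 8.65, 6.68 and 6.61 RPKM in controls and 5, 4.63 and 5.56 in mutants (adjusted p = 0.0249). *Flrt2*, a membrane protein that binds UNC5 receptors, was also lower at E11.5 without a call, at 16.4, 13.1 and 14.7 RPKM in controls and 9.51, 8.22 and 6.89 in mutants (-0.85, adjusted p = 0.0864, SE 0.15). Of the netrin receptors outside the UNC5 family, *Neo1* had 22.7 ± 2.14 and 21.2 ± 3.37 RPKM at E12.5 (-0.10, adjusted p = 0.661). At E11.5, 42 of the 50 were tested and none was called in edgeR, and 4 were at an unadjusted p under 0.05 (*Crmp1*, *Flrt2*, *Fyn* and *Met*), close to the 10.1% of all genes.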

How the data were processed

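RNA from 12 samples of embryonic heart was sequenced as paired ends (Illumina). Per the labels and the methods, the authors aligned reads to mm10 with Bowtie2 and used DESeq. The counting program, the annotation and the use of strand are not given in the sources used here.

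The authors deposited 1 table of 20368 genes named RPKM and 2 comparisons. Here the deposited values are named a score, because each is a whole count multiplied, not divided, by the gene length and a library factor. The comparisons hold average counts per group, deposited by the authors, which are of the expected count kind and fixed these factors. They also hold the authors' fold changes and p-values, which were not used. Recovered counts were at most 6.08e-09 away from whole numbers in 17827 genes, and 1597 genes had no count. *Plxna3* and *Plxnb3*, on chromosome X and absent from the comparisons, had counts recovered from the common divisor of their values, a method that gave the same counts for 99.94% of 1594 genes it was checked on.

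Counts were tested with edgeR 4.0.16 (quasi-likelihood, TMM, R 4.3.3) on all genes with a mean of at least 0.5 RPKM over the libraries of a fit, without chromosome Y. Standard errors were derived from the F statistic. The smallest two-sided exact permutation p for 3 against 3 is 0.1, so none is quoted. Sex was called male at 100 or more counts on 4 Y-linked genes. Total counts set the depth, and counting error is only the lower limit of the error. Alternatives were DESeq2 1.42.0, limma 3.58.1 on log2(RPKM + 0.5), other scalings and filters, a replicate block, a sex term and each library left out.

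The members follow from their symbols. Values per library are given for members called, with an adjusted p of at most 0.05 between genotypes, without overlap at both stages in 1 direction, or highest in their family. Other genes named come from lists of 50 pathway genes and of cell type markers, or were chosen after their values were seen. Members and lists were chosen with earlier results of these data known. The steps were tested on simulated data.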

Additional observations from a re-analysis of the deposited data

Results flagged for a closer look

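*Sema3e*, a semaphorin that binds PLXND1 without a neuropilin, had log2 differences of opposite sign at the 2 stages. At E11.5 it stood at 0.888, 0.746 and 0.716 RPKM in controls and 0.701, 0.644 and 0.390 in mutants, and at E12.5 at 0.590, 0.606 and 0.675 in controls and 0.740, 0.966 and 1.28 in mutants. Every mutant library lay below every control at E11.5 and above every control at E12.5. The difference between the effects was 1.10 on the log2 scale (SE 0.35, unadjusted p = 0.00763, adjusted p = 0.779, edgeR), so it did not pass over all genes. It ran from 0.66 to 1.34 over 21 alternatives, with adjusted p from 0.210 to 1. Counts of *Sema3e* ran from 32 to 138 a library. Of 12415 genes tested at both stages, 38 had groups apart in opposite directions.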

How the results depend on the processing

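At E11.5, 0 guidance genes were called by edgeR, 3 by DESeq2, 2 with a sex term, 2 with all 12 libraries in 1 fit, and 0 leaving out each library in turn. At E12.5 the 4 calls became 1 with limma, 2 with a mean of at least 5 RPKM, which leaves 20 genes and drops *Robo4* and *Sema7a*, and 0 with all 12 libraries in 1 fit, and ran from 0 to 4 leaving out each library. In controls between stages, the 4 became 7 with DESeq2, 8 with no fold threshold, 0 with a sex term, 1 with all 12 libraries and 10 with the values as deposited, an alternative added after seeing the data, and ran from 1 to 6 leaving out each library. The values as deposited were not corrected for depth, and their library factor follows the library total (Pearson r of the logs 0.984). This alternative is included in the ranges over alternatives. In mutants between stages, the 1 became 0 with limma, with a mean of at least 5 RPKM, with the replicate block and with the values as deposited, and ran from 0 to 1 leaving out each library. The difference between stages stayed at 0 in all 22 alternatives. Except where the construction shows it, the cause was not tested.

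Over the alternatives, log2 fold changes at E12.5 ran from -0.78 to -0.57 for *Robo1* (adjusted p from 5.7e-05 to 0.176), -1.09 to -0.72 for *Robo4* (0.00242 to 0.145), -1.63 to -0.70 for *Sema7a* (0.000249 to 0.155) and -0.79 to -0.39 for *Slit2* (0.0106 to 0.367). None of these reversed. *Ntn1* at E12.5 had a log2 fold change of 0.10, which was 0.37 without E12.5 control replicate 1 and reversed to -0.13 without E12.5 control replicate 3, -0.16 without E12.5 Mutant replicate 3 and -0.02 with the values as deposited, none of them called.

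Same-numbered libraries had correlations of their deviations from -0.127 to 0.432, not all above 0.1, so the numbers were not taken as pairs. With the replicate block 0 guidance genes were called at E11.5, 4 at E12.5, 0 for the difference between stages, 6 in controls between stages and 0 in mutants. With 3 libraries a group, genes of few reads such as *Sema7a* have wide intervals, and at E11.5 sex and genotype are partly confounded.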
